A study of Mus musculus with 120 samples.

Results

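The hippocampus of 26-week-old mice that carry 1 expanded Atxn1 allele with the K772T change was compared with that of WT mice of the same age, in 8 of the 120 libraries of the series. The 4 mutant and 4 WT libraries were chosen by their region, age and genotype labels and compared over all genes. The study sequenced RNA from 5 brain regions of C57BL/6J mice of 3 genotypes at 10 and 26 weeks of age, with 4 mice in each of 30 groups. The mutants are knock-in animals: 175QK772T mice have the genotype Atxn1 175QK772T/2Q, 175Q mice Atxn1 175Q/2Q, and WT mice carry no expanded allele. Both mutants therefore keep 1 allele of normal repeat length, and both express the expanded one in every cell that uses the Atxn1 promoter. At 26 weeks each genotype had 2 female and 2 male mice. At 10 weeks the 175QK772T mice were female except that of library 4, and WT mice were balanced by sex. The descriptions of the 26-week libraries give the expanded lines a smaller repeat number than their genotype labels. The repeat length is therefore uncertain, and the genotype labels are used here. The 4 hippocampus libraries of 175Q mice at 26 weeks, and the 4 of 175QK772T and 4 of WT mice at 10 weeks, serve for comparison.

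Ataxin-1 is a nuclear protein that binds RNA and, together with the repressor Capicua (CIC), regulates transcription. A lengthened glutamine stretch in it causes spinocerebellar ataxia type 1, an inherited disease of the cerebellum and brainstem that also affects cognition. The K772T change replaces a lysine in the nuclear localization signal of the protein, so that less of it enters the nucleus. The hippocampus, which forms new memories, holds granule neurons of the dentate gyrus, pyramidal neurons of the CA1, CA2 and CA3 fields, mossy cells, GABAergic interneurons and glia. The comparison asks what the expanded protein with the damaged signal still does to the RNA of this tissue.

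Promoters of 6 genes are shown first, since they belong to the rises and falls of smallest p among genes changed over 2-fold and let the sequences of both directions be compared. Each run is the 250 bases before the RefSeq start on build GRCm38.p6, written 5′ to 3′ along the gene, with CG dinucleotides in capitals. The first 3 genes rose in 175QK772T hippocampus and the last 3 fell.
Pax2, chr19:44746351-44746600, plus strand: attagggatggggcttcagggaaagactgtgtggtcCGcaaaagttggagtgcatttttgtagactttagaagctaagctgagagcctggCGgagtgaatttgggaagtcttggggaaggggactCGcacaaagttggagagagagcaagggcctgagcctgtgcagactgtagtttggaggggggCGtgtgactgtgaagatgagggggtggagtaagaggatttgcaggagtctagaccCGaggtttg
Tal1, chr4:115056176-115056425, plus strand: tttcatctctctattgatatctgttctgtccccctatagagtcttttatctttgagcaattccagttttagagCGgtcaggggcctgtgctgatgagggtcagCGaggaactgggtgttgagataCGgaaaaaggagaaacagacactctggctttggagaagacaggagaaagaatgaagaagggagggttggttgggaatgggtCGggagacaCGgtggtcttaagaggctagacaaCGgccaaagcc
Twist1, chr12:33957421-33957670, plus strand: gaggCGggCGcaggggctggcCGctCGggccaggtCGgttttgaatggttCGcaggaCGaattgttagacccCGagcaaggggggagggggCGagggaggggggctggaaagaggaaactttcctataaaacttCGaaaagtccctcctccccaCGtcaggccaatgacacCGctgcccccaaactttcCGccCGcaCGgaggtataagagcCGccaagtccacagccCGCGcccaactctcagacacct
Stxbp6, chr12:45074484-45074733, minus strand: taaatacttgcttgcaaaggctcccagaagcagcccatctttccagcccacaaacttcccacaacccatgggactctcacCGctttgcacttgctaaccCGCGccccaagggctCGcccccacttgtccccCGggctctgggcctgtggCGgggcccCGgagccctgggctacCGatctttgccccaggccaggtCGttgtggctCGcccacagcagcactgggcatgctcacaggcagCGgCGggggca
Ptgs2, chr1:150099781-150100030, plus strand: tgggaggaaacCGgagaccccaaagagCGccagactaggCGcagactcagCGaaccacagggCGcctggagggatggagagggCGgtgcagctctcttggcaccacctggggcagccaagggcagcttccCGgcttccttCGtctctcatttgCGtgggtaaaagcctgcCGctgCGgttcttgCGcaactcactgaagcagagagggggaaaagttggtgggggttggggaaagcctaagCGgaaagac
Fam131a, chr16:20694807-20695056, plus strand: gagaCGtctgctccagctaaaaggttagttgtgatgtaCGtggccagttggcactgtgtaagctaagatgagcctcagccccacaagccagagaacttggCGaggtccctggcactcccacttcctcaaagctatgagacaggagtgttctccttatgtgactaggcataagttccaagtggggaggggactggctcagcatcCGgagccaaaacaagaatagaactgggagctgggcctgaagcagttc

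RefSeq starts need not match the ends of the genes as counted. The Pax2 window ends at 44746600, well before the counted gene, which begins at 44756045. The Fam131a window lies inside the counted gene, which begins at 20693241, and the Stxbp6 window overlaps its counted gene. Among these 6 windows GC content was between 48.8% (Tal1) and 65.2% (Stxbp6), and CG dinucleotides numbered between 4 (Fam131a) and 18 (Twist1). Over all tested genes with a window, matched by symbol, the 13107 windows had a median GC content of 59.2% and a median of 14 CG dinucleotides, with quartiles of 7 and 22. The 1331 windows of genes that rose had medians of 59.6% and 15, and the 1417 of genes that fell had 61.6% and 16. The 144 windows of genes that fell over 2-fold had a median GC content of 56.4% and a median of 7 CG dinucleotides, with quartiles of 3 and 16.25. The octamers bound by CIC, TGAATGAA and TGAATGGA, were searched on both strands. At least 1 of them stood in 1.95% of windows of genes that rose, in 1.06% of windows of genes that fell and in 2.78% of the 144 windows of genes that fell over 2-fold, against 1.45% of all windows, and in none of the 6 printed. Ptgs2, the inducible cyclooxygenase, averaged 8.27 ± 0.950 CPM in 175QK772T and 26.6 ± 3.39 CPM in WT mice, and Fam131a 245 ± 11 CPM in 175QK772T and 493 ± 22.7 CPM in WT mice (SD, n = 4 each); values of the other 4 genes follow.

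The libraries held 31.1 to 53.1 M counts in 175QK772T and 34 to 53.1 M in WT mice, and levels are given as CPM, counts per M of the effective library size. Mitochondrial transcripts took 5.30 to 5.56% in 175QK772T and 4.98 to 5.67% in WT libraries. On the first principal component of all hippocampus libraries of 26 weeks, with 44.3% of the variance, 175QK772T lay between 0.134 and 5.96, 175Q between 21.8 and 27.2 and WT between -29.3 and -24.4, with no overlap. Markers of choroid plexus, a tissue that touches the hippocampus, summed to 304, 234, 541 and 1600 CPM in 175QK772T libraries 1 to 4, and to 479, 3480, 299 and 223 CPM in the WT libraries. Counts given without 2 libraries leave out 175QK772T library 4 and WT library 2, the highest of their groups. Atxn1 itself (ENSMUSG00000046876, GRCm38 chromosome 13, 45549755 to 45965008) was at 109, 103, 101 and 105 CPM in 175QK772T mice and at 84.6, 73.8, 85.6 and 94.0 CPM in WT mice, so that every mutant was above every WT library. Its log2 fold change was 0.31 ± 0.07 (edgeR adjusted p = 0.00488), with ± the standard error here and after every log2 fold change. Exons of Gmpr overlap it on the opposite strand and the strand setting of the 26-week counting is not stated, so its level is uncertain to that extent. The counts do not tell the 2 alleles apart. The same limit holds for other genes below whose exons overlap a gene on the opposite strand: Amigo2, Arntl, Bdnf, C1ql3, Cyp51, Dbp, Grin2d, Homer3, Hoxa7, Kcnh3, Kcnq5, Nr1d1, Penk, Pou3f1, Slc1a2 and Tef. Hspa8 holds small RNA genes on its own strand, and Hspa1b has a near-identical neighbour, Hspa1a.

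Of 19809 genes tested, 3765 (19%) were called at 26 weeks: 1802 (9.10%) were higher in 175QK772T than in WT hippocampus and 1963 (9.91%) were lower. Most changes were small, with a median size of 0.30 on the log2 scale among genes that rose and 0.36 among genes that fell. Over 2-fold, 193 genes rose and 216 fell; over 8-fold, 67 rose and 8 fell. Calls rest on the quasi-likelihood test of edgeR, 4 against 4 mice, at a Benjamini-Hochberg adjusted p below 0.05. The shares depend on the scaling: with library totals in place of TMM factors 4724 genes were called and 69.4% of them were higher, against 47.9% with TMM, and the median log2 fold change of all genes was 0.0651, against -0.00082 with TMM. Without the 2 libraries rich in choroid plexus RNA 2287 genes were called, of which 2228 were also called with all libraries.

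**Figure D1:**
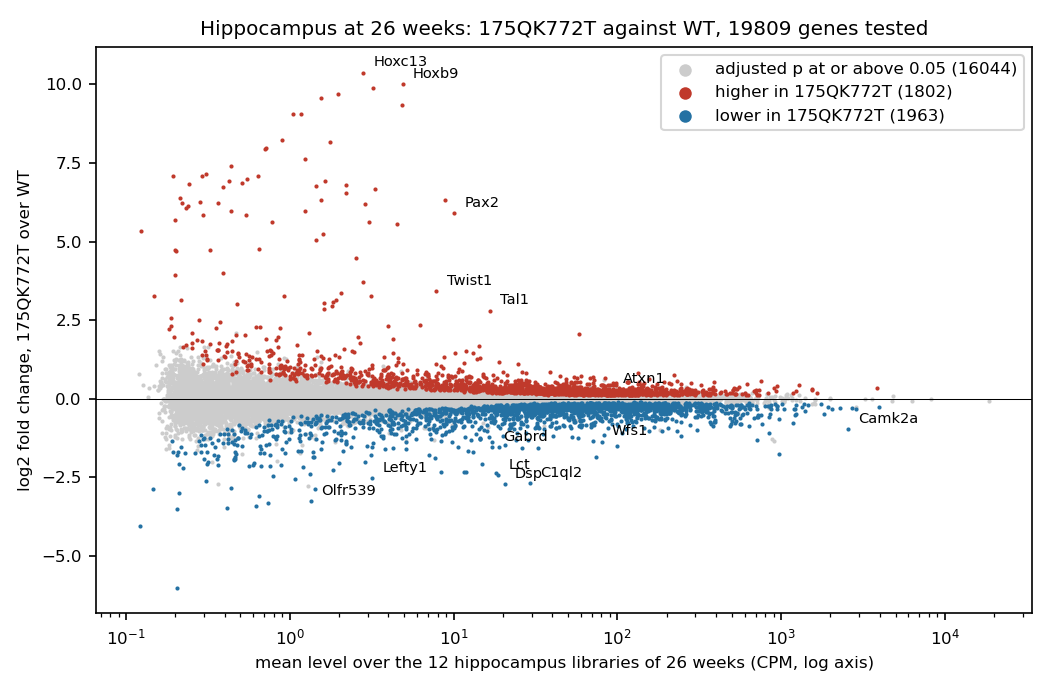
Log2 fold change of 175QK772T over WT hippocampus at 26 weeks (vertical) against the mean level over 12 libraries in CPM (horizontal, log axis), 1 point for each of 19809 genes; red points rose (1802), blue points fell (1963) and grey points were not called. The largest rises lie at low levels, and the falls include abundant genes such as Camk2a.

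Genes of embryonic patterning made up the largest rises. Of the 15 largest by log2 fold change, 11 come from the Hox clusters, whose homeodomain factors set position along the body axis and are normally used in the nervous system in hindbrain and spinal cord, not in the forebrain. Hoxc13 (ENSMUSG00000001655, GRCm38 chromosome 15, 102921103 to 102928814), a gene of the posterior end of its cluster, was at 4.72, 4.57, 3.69 and 3.10 CPM in 175QK772T mice and had no read in any WT library. Against a floor of 3 counts over the WT group it was at least 223-fold higher (edgeR adjusted p = 2.24e-07). Hoxb9 was at 3.49, 4.68, 2.15 and 2.28 CPM in 175QK772T mice, against 0 in WT, and at least 182-fold higher. Hoxa5, which patterns the neck and upper thorax, was at 3.28, 2.87, 3.21 and 2.17 CPM in 175QK772T mice, against 0 in WT, and at least 156-fold higher. Each mutant library held these genes and no WT library did. Hoxc4 was at least 143-fold and Hoxd9 at least 50.5-fold higher by the same floor. Hoxaas2, an antisense RNA of the Hox a cluster, was at least 123-fold and Hoxb2 at least 89.3-fold higher, but both overlap exons on the opposite strand.

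In 4 further Hox genes the WT group held 1 to 3 reads in all. Hoxb8 was at 6.28, 7.85, 5.07 and 4.24 CPM in 175QK772T mice and at 0, 0.0303, 0 and 0 CPM in WT mice, a ratio of 998 with a 95% counting interval of 179 to 39454. The ratio was 294 for Hoxb5 (52.3 to 11645; its exons overlap an antisense RNA), 146 for Hoxc6 (49.8 to 713) and 121 for Hoxd8 (41.2 to 591). Such intervals and floors cover counting error only. The other genes of the 15 were also developmental transcription factors. Tbx5, a T-box factor of heart and forelimb, was at 1.78, 1.74, 1.35 and 1.55 CPM in 175QK772T mice against 0 in WT, at least 89.7-fold higher. Barx1, a homeobox gene of stomach and tooth, had a ratio of 141 (38.6 to 1168). Pou4f2, which specifies retinal ganglion cells, had a ratio of 132 (44.8 to 643). En1, a homeobox gene of the midbrain-hindbrain boundary, averaged 2.50 ± 0.578 CPM in 175QK772T and 0.0238 ± 0.0283 CPM in WT mice (SD, n = 4 each).

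The whole Hox family was counted after these values were seen, as a description. Of 39 Hox genes 29 had no read in any WT library, 18 had at least 10 reads in each 175QK772T library and none reached 10 reads in a WT library. The 28 that passed the filter on low counts were all called higher, but a gene near 0 in WT could pass that filter only through the mutants. Summed over the 39 genes, Hox RNA was at 42.8, 49.7, 38.5 and 30.7 CPM in 175QK772T mice and at 0.295, 0.242, 0.280 and 0.151 CPM in WT mice. All 4 clusters took part: means were 9.18 ± 1.08 CPM in 175QK772T and 0.0699 ± 0.0193 CPM in WT mice for Hox a, 15.9 ± 3.20 and 0.0829 ± 0.0520 CPM in that order of genotypes for Hox b, 11.4 ± 2.98 and 0.0168 ± 0.0200 CPM for Hox c, and 3.99 ± 1.17 and 0.0724 ± 0.0422 CPM for Hox d (SD, n = 4). In 11 other families of developmental factors, counted in the same way, 22 of 69 tested genes rose, against 9.10% of all genes tested, and 5 fell. Of 9 tested Tbx genes 5 rose, of 7 Lhx genes 2, of 4 Pax genes 3, of 6 sine oculis homeobox genes 2 and of 5 Irx genes 1, with no falls. Both tested Onecut genes and both En genes rose, and the 1 tested Gata gene was not called. Of 6 Dlx genes 3 rose and 1 fell, of 11 Pou genes 2 rose and 1 fell, and of 16 Sox genes none rose and 3 fell. The limit of the filter holds for these counts as well.

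Some factors with a measurable WT level rose with less uncertainty. Pax2, a paired-box factor of kidney and midbrain-hindbrain whose promoter is printed above, was at 14.9, 15.3, 12.4 and 12.1 CPM in 175QK772T mice and at 0.138, 0.182, 0.392 and 0.215 CPM in WT mice (log2 fold change 5.91 ± 0.19, edgeR adjusted p = 2.32e-10). Skor1, a corepressor of the SKI family, was at 12, 13.3, 12.2 and 11 CPM in 175QK772T and at 0.0787, 0.151, 0.0840 and 0.280 CPM in WT mice, a log2 fold change of 6.31 ± 0.26. Both genes stood far above every WT library in every mutant. Twist1, a helix-loop-helix factor of mesoderm, was at 10.5, 10.2, 8.47 and 9.60 CPM in 175QK772T and at 0.865, 0.969, 1.01 and 0.776 CPM in WT mice, a log2 fold change of 3.43 ± 0.13. Tal1, a helix-loop-helix factor of blood and of some midbrain and spinal interneurons, was at 19.9, 20.6, 13.9 and 16.9 CPM in 175QK772T and at 2.58, 2.39, 2.74 and 2.48 CPM in WT mice, a log2 fold change of 2.80 ± 0.11. Wt1 and Pou4f1 rose by 4.49 ± 0.34 and 3.28 ± 0.31 on the log2 scale. In the list of 14 Hox and developmental factors, picked from earlier results of these data, all 14 tested members were called higher with a median log2 fold change of 5.74, the same with genes at 0 in WT set to their bound. The level of any of these genes per cell, and the share of cells that hold them, cannot be told apart in tissue RNA, here and below.

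**Figure D2:**
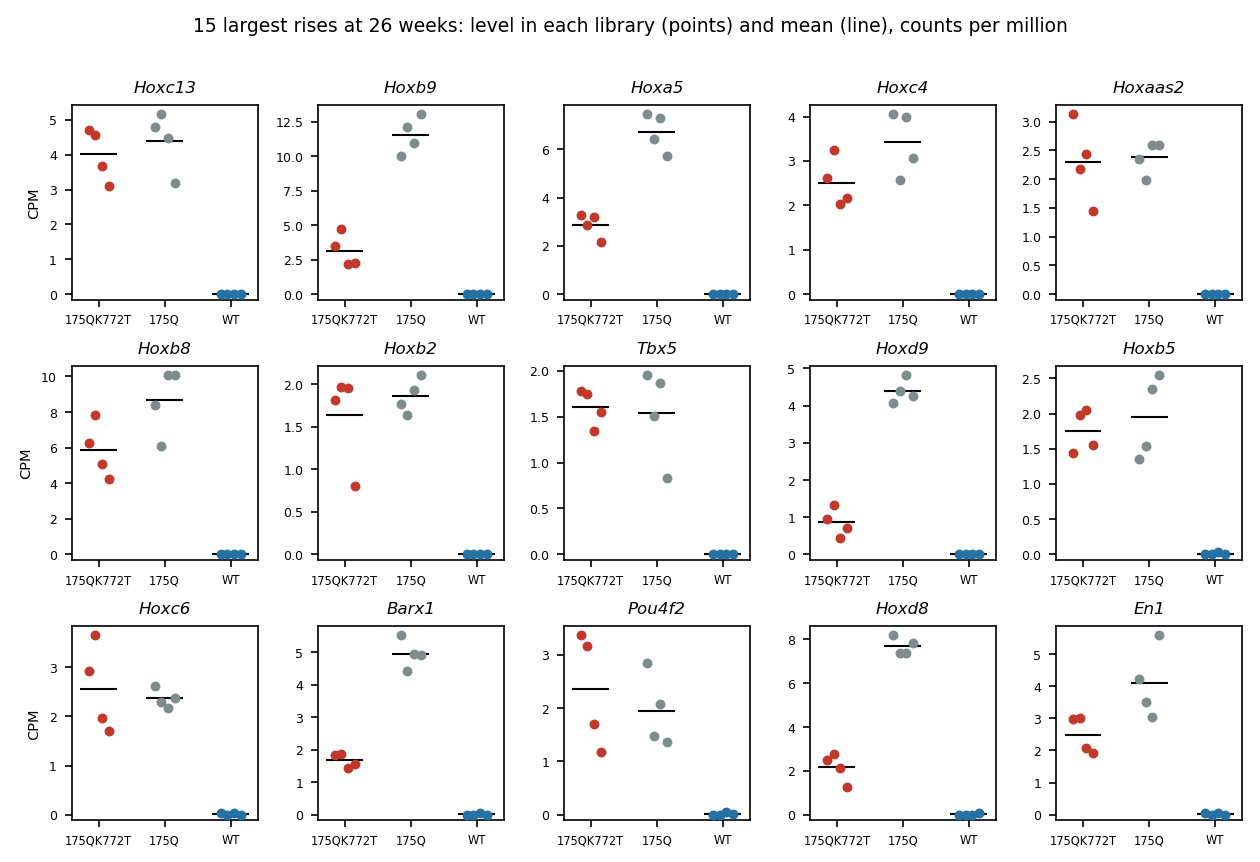
Level in CPM (vertical) of the 15 largest rises in each library (points) and its mean (line), by genotype, at 26 weeks. The 4 175QK772T libraries hold every gene shown, the 4 WT libraries lie at or near 0, and every 175Q library lies above every 175QK772T library for Hoxb9, Hoxa5, Hoxd9, Barx1, Hoxd8 and En1.

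The largest falls included several markers of hippocampal neurons. Dsp (ENSMUSG00000054889, GRCm38 chromosome 13, 38151294 to 38198577), which encodes the desmosomal protein desmoplakin and marks dentate granule neurons, was at 6.35, 7.53, 8.21 and 7.30 CPM in 175QK772T mice and at 43.1, 52.6, 48.8 and 48.2 CPM in WT mice, a log2 fold change of -2.71 ± 0.22 (edgeR adjusted p = 1.63e-06; an overlapping gene model makes it uncertain). C1ql2 (ENSMUSG00000036907, GRCm38 chromosome 1, 120340582 to 120343174), a secreted C1q-like protein that organises mossy fibre synapses, was at 9.53, 11.3, 12.7 and 11.8 CPM in 175QK772T and at 80.1, 70.5, 84.7 and 53.4 CPM in WT mice, a log2 fold change of -2.67 ± 0.21. The lowest WT value of either gene was several times the highest mutant value. Lct, the lactase gene, was at 9.78, 9.36, 9.17 and 5.29 CPM in 175QK772T and at 46.5, 44.2, 51.4 and 36.2 CPM in WT mice, a log2 fold change of -2.42 ± 0.19. Plk5, a polo-like kinase of neurons, was at 6.50, 8.09, 5.90 and 8.99 CPM in 175QK772T and at 35.3, 29.8, 29.6 and 30.1 CPM in WT mice, a log2 fold change of -2.07 ± 0.14. Lefty1, an antagonist of Nodal signalling and a marker of CA1, was at 1.23, 1.31, 1.35 and 1.09 CPM in 175QK772T and at 6.31, 6.24, 8.90 and 7.15 CPM in WT mice, a log2 fold change of -2.52 ± 0.15.

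The other falls belong to no single family. Tnfrsf25, the death receptor DR3, was at 7.60, 7.04, 5.45 and 2.92 CPM in 175QK772T and at 36.6, 26.7, 23.8 and 26.4 CPM in WT mice. Ankrd63, which encodes ankyrin repeats, was at 4.87, 3.67, 3.50 and 4.15 CPM in 175QK772T and at 17.4, 18.7, 19.8 and 24.4 CPM in WT mice. Rasd1, a small G protein induced by dexamethasone, averaged 5.17 ± 0.963 CPM in 175QK772T and 26.1 ± 4.02 CPM in WT mice (SD, n = 4 each), and Lrrc10b averaged 8.09 ± 1.69 and 41.7 ± 5.49 CPM in that order of genotypes. These 4 genes fell by 2.34, 2.32, 2.33 and 2.37 in turn on the log2 scale. Pla2g2f, a secreted phospholipase, Mylk3, a myosin light chain kinase known from heart, and Vwa3b fell by 2.86, 2.55 and 1.88. C3, the central complement component, was at 0.521, 0.431, 0.642 and 0.616 CPM in 175QK772T and at 2.40, 4.30, 2.04 and 1.27 CPM in WT mice, a log2 fold change of -2.18 ± 0.32. The olfactory receptor Olfr539 (-3.25 ± 0.31) and the protease Htra4 (-2.27 ± 0.30) also fell, and both share exons with a model on the other strand. All 30 genes of these 2 groups were still called without any 1 library and under every other setting tried. They had been chosen among called genes with no overlap between the groups.

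**Figure D3:**
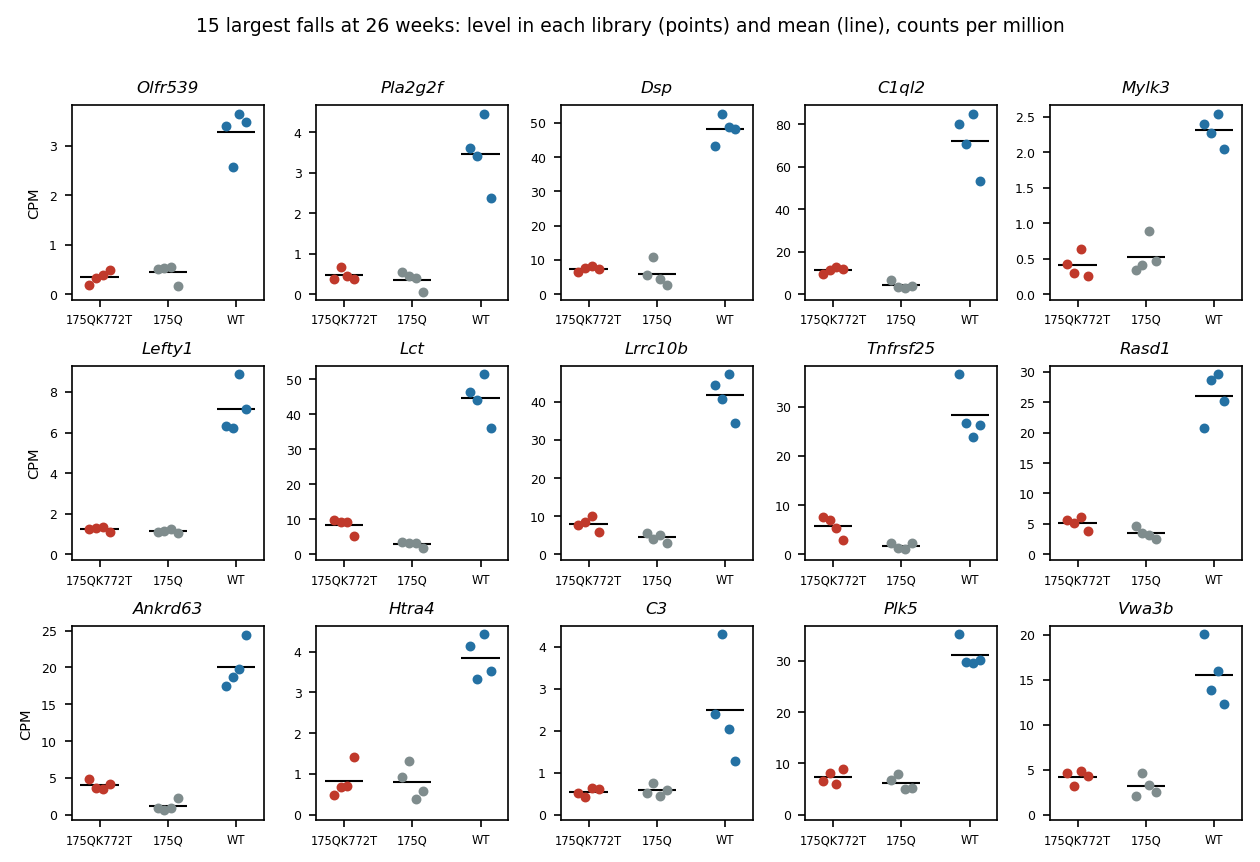
Level in CPM (vertical) of the 15 largest falls in each library (points) and its mean (line), by genotype, at 26 weeks. Every 175QK772T value lies below every WT value by the rule that chose these genes. The 175Q libraries are lower still, without overlap with 175QK772T, for C1ql2, Lct, Lrrc10b, Tnfrsf25 and Ankrd63.

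Most markers of dentate granule neurons and of CA1, CA2 and CA3 neurons fell. The members of these lists, and of the lists below, were chosen with earlier results of these data known. Their shares are therefore a description, and setting them beside those of all genes is no independent test. The granule neuron markers Dsp, C1ql2, Lct and Plk5 and the CA1 marker Lefty1 are among the largest falls described above. Of 12 tested markers of dentate granule neurons 11 fell and none rose, with a median log2 fold change of -1.04, against 9.91% lower and a median of -0.00080 over all genes. In 11 of the 12 the values of the groups did not overlap, which held for 24.1% of all genes. Beside Dsp, C1ql2, Lct and Plk5 these were Stxbp6, a syntaxin-binding protein whose promoter is printed above (46.9, 45.7, 46.7 and 52.3 CPM in 175QK772T, against 129, 114, 123 and 118 CPM in WT mice), the calcium-permeable channel Trpc6 (-1.27 ± 0.16), Tdo2 (-0.81), C1ql3 (-0.58), Dock10 (-0.54), Pdzd2 (-0.41) and Prox1. Prox1, the factor that sets granule neuron identity, was at 75.8, 75.3, 81.6 and 66.7 CPM in 175QK772T and at 120, 112, 113 and 88.3 CPM in WT mice, a log2 fold change of -0.53 ± 0.10; an antisense RNA overlaps it. Calb1, which encodes the calcium buffer calbindin, did not pass, at 84.8, 102, 79.0 and 110 CPM in 175QK772T and 117, 110, 95.8 and 123 CPM in WT mice.

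Of 10 CA1 markers 9 fell and none rose, with a median of -0.72, against 9.91% lower and 9.10% higher over all genes tested. The CA1 marker that did not fall, at a log2 fold change of 0.34, was called higher with DESeq2 and with total-count scaling. Wfs1, which encodes wolframin of the endoplasmic reticulum, was at 47.3, 60.2, 57 and 58.1 CPM in 175QK772T and at 125, 122, 159 and 168 CPM in WT mice, a log2 fold change of -1.37 ± 0.10. Spink8 fell by 1.02, Pou3f1 by 0.81, Gpr161 by 0.74 and Fibcd1 by 0.70. Of 8 CA2 markers 6 fell, with a median of -0.61. Rgs14, which restrains synaptic plasticity in CA2, was at 41.3, 42.6, 46.8 and 40.9 CPM in 175QK772T and at 95.9, 92.7, 114 and 102 CPM in WT mice, a log2 fold change of -1.24 ± 0.08, and Amigo2 fell by 0.99. Of 10 CA3 markers 6 fell, with a median of -0.50. Among them Bok, a BCL2 family member, was at 17.5, 21.2, 23.1 and 18.5 CPM in 175QK772T and at 58.9, 62.6, 65.4 and 51.5 CPM in WT mice (-1.57 ± 0.13), and Cdh24, a cadherin, fell by 1.33. Of 6 mossy cell markers 2 fell, Sv2c (-0.55) and Drd2, and the lowest log2 fold change of the list was -0.69. Drd2 was not called without WT library 2, 3 or 4 or 175QK772T library 2, 3 or 4. Among 11 genes of newborn granule neurons and progenitors 1 rose and none fell: Dcx, the microtubule protein doublecortin of migrating neurons, was at 59.2, 63, 61.8 and 70.7 CPM in 175QK772T and at 35.9, 39.2, 36.3 and 49.2 CPM in WT mice, a log2 fold change of 0.67 ± 0.10.

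Most markers of glutamatergic neurons fell. Of 12 markers of glutamatergic neurons 10 fell, with a median of -0.55, against 9.91% lower and 9.10% higher over all genes tested. Camk2a, the calcium-dependent kinase of the postsynaptic density, was at 2157, 2116, 2102 and 2068 CPM in 175QK772T and at 4029, 3872, 4352 and 4101 CPM in WT mice, a log2 fold change of -0.95 ± 0.06 (edgeR adjusted p = 1.04e-07). Itpka, a kinase of inositol trisphosphate in dendritic spines, was at 64.9, 65.2, 72.8 and 69.8 CPM in 175QK772T and at 176, 182, 209 and 204 CPM in WT mice (-1.50 ± 0.10). The helix-loop-helix factor Neurod6 fell by 1.10, and Slc17a7, the vesicular glutamate transporter, by 0.47. Tbr1, a factor of glutamatergic neurons, was at a log2 fold change of -0.01 and did not pass. Of 15 ionotropic glutamate receptor subunits 7 fell and 2 rose, or 4 fell and 3 rose with total-count scaling. The NMDA receptor subunit Grin2a was at 174, 155, 175 and 163 CPM in 175QK772T and at 315, 337, 308 and 313 CPM in WT mice, a log2 fold change of -0.93 ± 0.06. The AMPA receptor subunit Gria1 fell by 0.58. The 2 rises were of Grik3 (0.16) and Grin2d (0.28); neither was called without WT library 1 or 3, without 175QK772T library 1, 3 or 4, or without the 2 libraries named above.

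Of 12 GABA-A receptor subunits 4 fell and none rose. Beside this and the next counts, 9.91% of all genes tested were lower and 9.10% higher. The largest falls were in subunits of extrasynaptic receptors, which carry tonic inhibition: Gabrd was at 11.3, 12.3, 10.5 and 11.4 CPM in 175QK772T and at 35, 26.7, 37.2 and 33.8 CPM in WT mice (-1.54 ± 0.10), and Gabra5 at 92.3, 85.1, 95.6 and 92.9 CPM in 175QK772T and 176, 175, 178 and 175 CPM in WT mice (-0.95 ± 0.06; a gene model on the other strand overlaps it). With total-count scaling 3 subunits rose and 3 fell, and with DESeq2 2 rose and 4 fell. Of 16 voltage-gated potassium channel genes 7 fell and none rose, among them Kcnh3 (-0.65), Kcnq5 (-0.41), Kcnc1 (-0.40) and Kcnq3 (-0.39). Of 19 tested genes of metabotropic glutamate and calcium signalling 11 fell and 1 rose, with 7 falls in place of 11 without 175QK772T library 4. Homer3, a postsynaptic scaffold, fell by 1.56, and the plasma membrane calcium pump Atp2b1 by 0.57. Cacna1g, which encodes a T-type calcium channel, rose: it was at 152, 140, 140 and 134 CPM in 175QK772T and at 89.9, 109, 94.3 and 101 CPM in WT mice, a log2 fold change of 0.52 ± 0.06.

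Among 14 markers of GABAergic interneurons 6 fell and none rose, against 9.91% lower and 9.10% higher over all genes tested. With DESeq2, with total-count scaling and without the 2 libraries 1 rose in each case. Sst, the peptide somatostatin of dendrite-targeting interneurons, was at 103, 110, 96.1 and 113 CPM in 175QK772T and at 151, 179, 176 and 187 CPM in WT mice, a log2 fold change of -0.72 ± 0.11. The enzymes Gad1 and Gad2, which make GABA, were at -0.16 and -0.17 on the log2 scale and did not pass. Pvalb was called with all libraries but not without WT library 1, 3 or 4 or 175QK772T library 1 or 4 (edgeR adjusted p up to 0.190). It also lost its call with RLE scaling, with total-count scaling and without the 2 libraries. Of 14 neuropeptide genes 7 fell and 1 rose. Pdyn, which encodes the dynorphins of dentate granule neurons, was at 4.05, 4.18, 4.46 and 3.88 CPM in 175QK772T and at 16, 13.2, 15.9 and 12.4 CPM in WT mice, a log2 fold change of -1.80 ± 0.14. Penk (enkephalin) fell by 1.36, Npy by 0.64, Vip by 0.58 and Cck by 0.56. Nts (neurotensin) rose, at 12, 9.63, 12 and 7.89 CPM in 175QK772T and 4.25, 4.54, 3.55 and 4.14 CPM in WT mice, a log2 fold change of 1.33 ± 0.14. Of 14 tested activity-regulated genes 4 fell and none rose, and 2 fell without 175QK772T library 4. Bdnf, a neurotrophin, fell by 0.70 and the zinc-finger factor Egr3 by 0.67. Fos, the immediate early gene, was at 27 and 23.2 CPM in the 2 female and 7.38 and 6.48 CPM in the 2 male 175QK772T mice, against 5.19 and 7.11 CPM in the 2 female and 8.12 and 14.9 CPM in the 2 male WT mice, and did not pass.

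**Figure D4:**
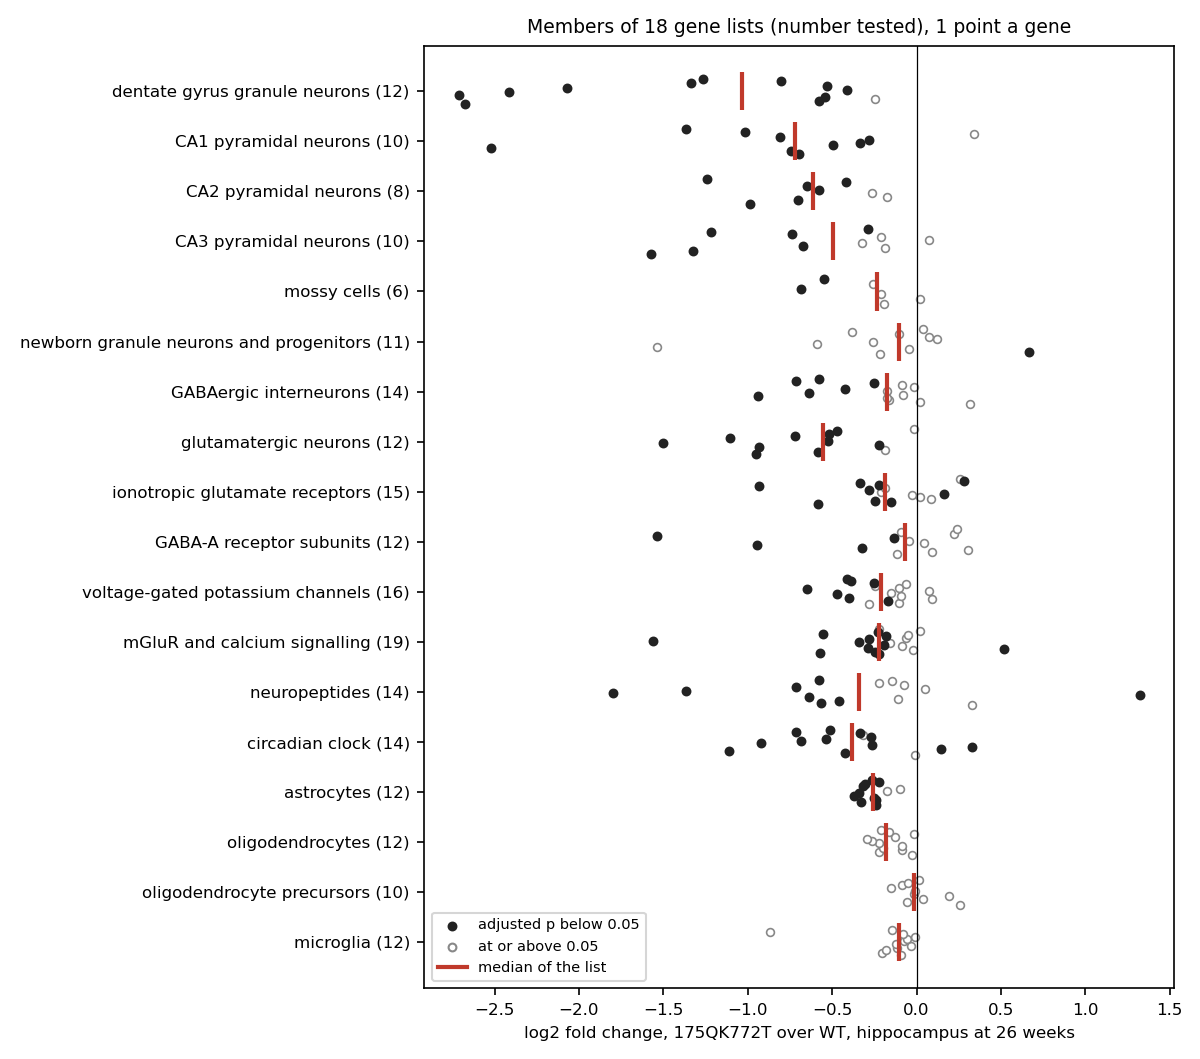
Log2 fold change of 175QK772T over WT at 26 weeks (horizontal) for the tested members of 18 gene lists (rows, number of genes in brackets), filled where the adjusted p was below 0.05, with the median as a red line. Field markers and glutamatergic genes lie mostly left of 0, and no marker of oligodendrocytes, their precursors or microglia is filled.

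Most astrocyte markers fell, by small amounts. Over all genes tested 9.91% were lower and 9.10% higher, which stands beside the glial counts here. Of 12 astrocyte markers 10 fell and none rose, with a median of -0.26, and 6 fell without the 2 libraries and 7 with total-count scaling. In 10 of the 12 the values of the groups did not overlap, against 24.1% of all genes. Slc1a2, the main glutamate transporter, was at 3038, 2854, 2990 and 2792 CPM in 175QK772T and at 3688, 3409, 3686 and 3787 CPM in WT mice, a log2 fold change of -0.32 ± 0.06, and Gfap, the intermediate filament of reactive astrocytes, fell by 0.37. None of 12 oligodendrocyte, 10 oligodendrocyte precursor, 12 microglial or 8 meningeal markers was called by edgeR in either direction. Of the 12 microglial markers 2 had an unadjusted p below 0.05 and DESeq2 called 1. All 12 had a negative log2 fold change, and edgeR called 3 lower without 175QK772T library 2, and 1 without WT library 2, without 175QK772T library 3 or 4, or without the 2 libraries. Among 12 endothelial and pericyte markers 1 fell, and none did without WT library 2, 3 or 4 or 175QK772T library 1 or 3. Of 10 tested genes of reactive glia and complement 4 fell and 1 rose. Beside C3 and Gfap these included the complement gene C4b, which fell by 0.31, and Serpina3n, a marker of reactive astrocytes, which rose by 0.32 on the log2 scale. The other fall was of Cd68, a lysosomal protein of microglia and macrophages (-0.29), which was not called without WT library 3 or 4 or 175QK772T library 1, 2 or 4 (edgeR adjusted p up to 0.0838), without the 2 libraries, with no filter or with total-count scaling. None of 12 interferon response genes was called, and 2 had an unadjusted p below 0.05. With total-count scaling 1 of them rose.

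Markers of neighbouring tissue were read from the same libraries. The shares over all genes tested, beside which their counts stand, were 9.91% lower and 9.10% higher. None of 12 choroid plexus markers was called, at a median log2 fold change of -0.82, and none had an unadjusted p below 0.05. Ependymal markers summed to 21.1 to 28.2 CPM in 175QK772T and 28.7 to 50.7 CPM in WT libraries, and 2 of 6 tested fell, or 1 without the 2 libraries. Thalamic markers summed to 127 to 135 CPM in 175QK772T and 162 to 192 CPM in WT libraries, and 4 of 8 fell, led by Prkcd (-1.47), or 2 without 175QK772T library 1, 2 or 3. Striatal markers summed to 65.6 to 80.6 CPM in 175QK772T and 92.1 to 119 CPM in WT libraries, and 3 of 8 fell, or 1 without WT library 2 or 3 or 175QK772T library 1, 2 or 3. The highest log2 fold change of the striatal list was 1.02, and 1 member was called higher with DESeq2 and without the 2 libraries. Cerebellar markers summed to 139 to 171 CPM in 175QK772T and 172 to 189 CPM in WT libraries, and 1 of 5 tested fell (Pvalb, above). These 4 sums did not overlap between genotypes, so some of these markers moved in the same direction as the field markers, and their part in those falls was not tested. Of 8 neocortical layer markers 3 fell, and of 5 blood markers 1 fell, which was not called without WT library 2 or 3 or 175QK772T library 1, 2 or 3. Some of these markers, such as Calb1, Pvalb and Lamp5, are also used by hippocampal cells. Of 13 protein genes of the mitochondrial genome 1 fell and none rose, and none fell without WT library 1 or 4 or 175QK772T library 2, 3 or 4.

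Genes of the ataxin-1 family and its partners changed by small amounts. In the list of 10 such genes log2 fold changes lay between -0.13 and 0.31, and 2 rose, against 9.10% of all genes tested. These were Atxn1 and Hdac3, the second by 0.16 and not called without 175QK772T library 1 (edgeR adjusted p = 0.0511). In 5 of the 10 the values of the groups did not overlap, which held for 24.1% of all genes. Cic and Atxn1l, the repressor bound by ataxin-1 and the paralogue of ataxin-1, were at 0.01 and 0.05 on the log2 scale and did not pass. Of 12 target genes of CIC, described as such in mouse and human cells, 5 fell and none rose, with a median of -0.13. The share lower over all genes was 9.91%, and with total-count scaling 4 of the targets fell and 1 rose. Dusp4, a phosphatase of MAP kinases, was at 7.79, 10.6, 8.89 and 7.23 CPM in 175QK772T and at 15.8, 17.6, 16.2 and 16.9 CPM in WT mice, a log2 fold change of -0.94 ± 0.12. The phosphatase Dusp6 fell by 0.39, the factor Etv1 by 0.32 and the signalling inhibitor Spred2 by 0.22. Windows before the start were at hand for 8 of the 12 genes, and that of Spred3 holds a CIC octamer.

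Most genes of the circadian clock fell. For this list and those after it the shares over all genes tested were 9.91% lower and 9.10% higher. Of 14 clock genes 10 fell and 2 rose, with a median of -0.38, and 1 rose without WT library 2 or 3 or 175QK772T library 1. Ciart, a repressor of the clock, was at 4.84, 5.06, 6.03 and 5.73 CPM in 175QK772T and at 8.32, 11.1, 12.1 and 15.5 CPM in WT mice (-1.11 ± 0.14). The PAR-domain factors Dbp, Hlf and Tef fell by 0.92, 0.69 and 0.52, and Per3 and the nuclear receptor Nr1d1 by 0.72 and 0.54. Cry1, a repressor of the opposite phase, rose, at 17.7, 18.5, 16.1 and 16.7 CPM in 175QK772T and 13.8, 13.9, 12.8 and 14.4 CPM in WT mice, and Arntl was at -0.01 and did not pass. The labels give no time of day of tissue collection. Of 12 heat shock and chaperone genes 4 rose and 3 fell (2 rose without the 2 libraries): Hsp90aa1 rose by 0.41 and Hspa8 by 0.30, while the inducible Hspa1b was at 3.19, 3.91, 2.76 and 4.58 CPM in 175QK772T and at 8.54, 7.36, 9.41 and 6.31 CPM in WT mice (-1.11 ± 0.17). Of 12 glucocorticoid response genes 4 fell and none rose (2 fell without the 2 libraries), led by Fkbp5, a chaperone of the receptor, at 29.8, 28.2, 33.6 and 31 CPM in 175QK772T and 52.1, 63.2, 54.6 and 53.1 CPM in WT mice (-0.86 ± 0.07), and by Zbtb16 (-0.64). Of 14 genes of cholesterol synthesis 4 fell, Cyp51 by 0.19 among them.

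Many field markers stood above their level in 175Q hippocampus, where the localization signal is intact. Between 175QK772T and 175Q hippocampus 3107 of 19809 genes (15.7%) differed, 1759 (8.88%) higher and 1348 (6.80%) lower in 175QK772T; with total-count scaling 36.3% of the genes called were higher in place of 56.6%. In 175Q against WT 8073 genes (40.8%) were called, 4030 (20.3%) higher and 4043 (20.4%) lower in 175Q. The comparisons with WT share the WT libraries, so the values are set side by side. In 175Q library 2 the choroid plexus markers summed to 10800 CPM, the highest of the 12 libraries of 26 weeks, against 220 to 340 CPM in the other 175Q libraries, and it was the lowest on the second principal component (-30.8). Without it 2627 genes differed between the mutants; its part in the values below was not otherwise tested. Of the 12 dentate gyrus markers 7 stood higher in 175QK772T and none lower, with a median of 0.39, and so were 6 of 10 CA1, 3 of 8 CA2 and 4 of 10 CA3 markers. Without 175Q library 2 the counts were 6, 6, 2 and 3 in turn, and 1 CA2 marker was lower. C1ql2 was at 9.53 to 12.7 CPM in 175QK772T and 2.67 to 6.79 CPM in 175Q mice, a log2 fold change of 1.47 ± 0.23 (edgeR adjusted p = 0.00104). Lct differed by 1.47 ± 0.21, at 5.29 to 9.78 CPM in 175QK772T and 1.81 to 3.64 CPM in 175Q mice. Dsp was at 5.62, 10.9, 4.40 and 2.76 CPM in 175Q mice, a difference of 0.40 ± 0.24 that did not pass (edgeR adjusted p = 0.283). Of the 12 glutamatergic markers 11 were higher in 175QK772T, and of 14 interneuron markers and 14 neuropeptide genes 10 each; without 175Q library 2 these counts were 9, 7 and 10 in turn. Camk2a was 0.50 ± 0.06 and Grin2a 0.43 ± 0.06 higher on the log2 scale. In the clock list none was higher in 175QK772T and 4 were lower, Ciart by 0.81 and Per3 by 0.50 among them.

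The 5 largest rises of 175QK772T over 175Q hippocampus were Dio3, Ecel1, Gpr101, Ankrd63 and Tnfrsf25. Dio3, the deiodinase that inactivates thyroid hormone, was at 1.47, 1.14, 0.898 and 1.55 CPM in 175QK772T, 0.138, 0.0629, 0.228 and 0.325 CPM in 175Q and 3.99, 4.66, 1.46 and 3.06 CPM in WT mice, a log2 fold change over 175Q of 2.68 ± 0.44. Ecel1, a peptidase of the neprilysin family, was at 1.86 to 10.5 CPM in 175QK772T and 0.346 to 1.43 CPM in 175Q mice (2.40 ± 0.49), and Gpr101, an orphan receptor, at 4.36 to 12.4 CPM in 175QK772T and 1.29 to 3.67 CPM in 175Q mice (1.79 ± 0.39). Among the 5 largest falls were the developmental factors Lbx1, Hoxd9, Hoxb9 and Hoxd8. Lbx1, a homeobox gene of dorsal spinal cord, was at 0.582, 1.255, 0.577 and 0.456 CPM in 175QK772T and at 4.83, 3.27, 3.96 and 3.76 CPM in 175Q mice (-2.46 ± 0.28). Hoxb9 was at 9.99, 12.1, 10.9 and 13 CPM in 175Q mice, and 1.91 ± 0.18 lower in 175QK772T on the log2 scale. Not all factors differed: Hoxc13 (-0.13 ± 0.19), Pax2 (-0.27 ± 0.12), Skor1 (-0.22 ± 0.16) and Tbx5 (0.06 ± 0.27) did not pass between the mutants, which does not show equal levels. Summed Hox RNA was at 30.7 to 49.7 CPM in 175QK772T and 79.0 to 85.4 CPM in 175Q mice. Atxn1 was at 101 to 109 CPM in 175QK772T and 83.2 to 101 CPM in 175Q mice, a log2 difference of 0.17 (edgeR adjusted p = 0.0954).

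At 10 weeks, in other mice sequenced as a separate batch, 2273 of 21071 genes (10.8%) were called between 175QK772T and WT hippocampus, 1072 (5.09%) higher and 1201 (5.70%) lower. The count was 1307 with a replicate block and 1271 without 175QK772T library 4, the only male of its group. It was 1317 without WT library 1 and 1376 without WT library 3. Of the 3735 genes called at 26 weeks and tested at 10 weeks, 3575 (95.7%) had the same sign at the earlier age, and in 90.5% the log2 fold change was larger in size at 26 weeks. Choosing genes by their call at 26 weeks favours larger values at that age: of the 2230 genes called at 10 weeks and tested at 26 weeks, 59.6% were larger in size at 26 weeks. Both ages called 1581 genes in the same direction, which is 42% of the calls at 26 weeks and 69.6% of those at 10 weeks, and 2 genes in opposite directions. The libraries of 10 weeks had higher totals, with 74.2 to 102 M counts. The 39 Hox genes summed to 2.49, 3.54, 4.58 and 2.49 CPM in 175QK772T and 0.121, 0.287, 0.221 and 0.475 CPM in WT mice of 10 weeks. Ages and batches cannot be told apart in these sums. The largest rises among the better expressed genes at 10 weeks were Pou4f1 (5.34 ± 0.33), Pax2 (4.11 ± 0.30) and Skor1 (3.75 ± 0.22), and the largest falls Plk5 (-2.48 ± 0.13), Htra4 (-2.00 ± 0.18) and Ankrd63 (-1.95 ± 0.12). Of the 12 dentate gyrus markers 8 fell at 10 weeks, of the 10 CA1 markers 5, of the 8 CA2 markers 3 and of the 10 CA3 markers 4. Of the 12 glutamatergic markers 10 fell at 10 weeks. In some lists more genes fell at 10 than at 26 weeks: 11 of the 14 interneuron markers did, against 6, and 10 of the 16 potassium channel genes, against 7. None of these 14 or 16 genes was called in the interaction between genotype and age described below, so the counts show no difference between the ages. Median log2 fold changes of the potassium channel genes were -0.20 at 10 and -0.21 at 26 weeks, and those of the interneuron markers -0.36 and -0.18.

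The effect of 175QK772T differed between the ages in 16 of 21806 genes (0.0734%), 10 (0.0459%) with a higher and 6 (0.0275%) with a lower log2 fold change at 26 weeks (edgeR interaction; 1749 genes had an unadjusted p below 0.05, and DESeq2 called 125). The count was 4 with a replicate block, 447 with no filter on low counts, and 5 (without 175QK772T library 4 of 10 weeks) to 23 (without 175QK772T library 1 of 10 weeks) without 1 library. Dsp was at 31, 45.5, 54.5 and 52.2 CPM in 175QK772T and at 68.4, 60.6, 72.7 and 60.2 CPM in WT mice of 10 weeks, a log2 fold change of -0.49 ± 0.16 that did not pass, and the difference of its effects, 26 minus 10 weeks, was -2.22 ± 0.29 (edgeR adjusted p = 0.00164). Sim2, a helix-loop-helix PAS factor, was at 2.36, 1.93, 1.73 and 1.51 CPM in 175QK772T and at 0.197, 0.212, 0.140 and 0.388 CPM in WT mice at 26 weeks. At 10 weeks Sim2 was at 0.167, 0.396, 0.456 and 0.505 CPM in 175QK772T and at 0.268, 0.339, 0.321 and 0.404 CPM in WT mice, where the groups overlap, and the difference of its effects was 2.68 ± 0.38 (edgeR adjusted p = 0.0041). Hoxa7, Skor1, C1ql2 and Lefty1 were also called, and each lost its call without a single library. The largest edgeR adjusted p was 0.182 for Hoxa7 without WT library 4 of 10 weeks, 0.108 for C1ql2 without 175QK772T library 1 of 26 weeks, and 0.0647 for Skor1 and 0.0739 for Lefty1 without 175QK772T library 4 of 10 weeks. C1ql2 was at 24.5, 25.7, 32.1 and 29.9 CPM in 175QK772T and at 75.5, 65.7, 71.0 and 77.2 CPM in WT mice of 10 weeks. C3, which fell at 26 weeks, was at a log2 fold change of 0.11 ± 0.41 at 10 weeks and did not pass. The difference of its effects, -2.29 ± 0.55, was not called either (edgeR adjusted p = 0.149).

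**Figure D5:**
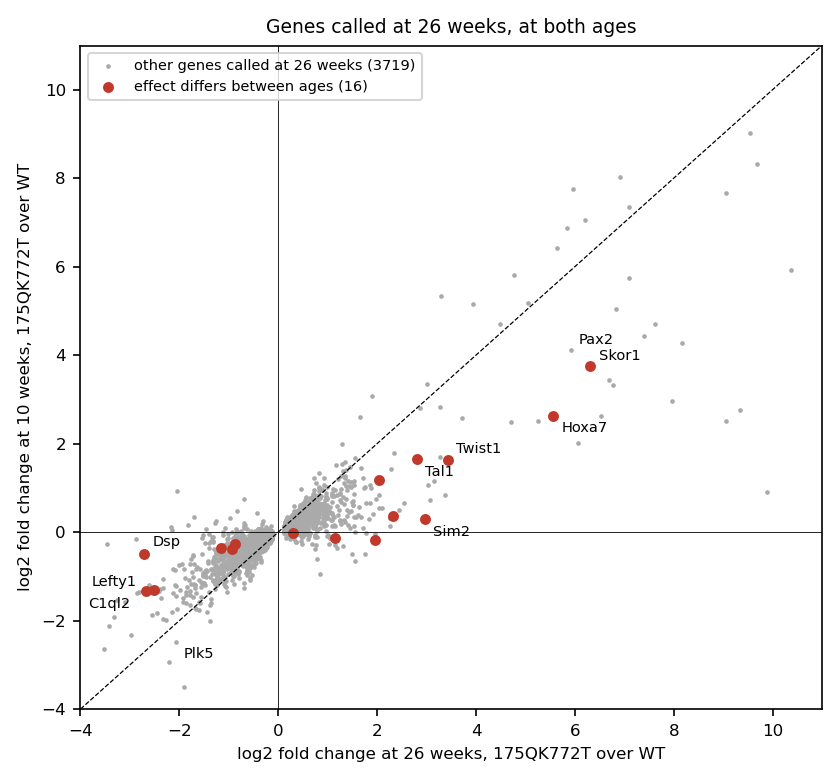
Log2 fold change of 175QK772T over WT at 10 weeks (vertical) against that at 26 weeks (horizontal) for 3735 genes called at 26 weeks and tested at 10 weeks; red points are the 16 genes whose effects differed between the ages, and the dashed line marks equal effects. Most points lie nearer 0 on the vertical axis than on the horizontal one; fitted values of genes with no reads in WT are not bounds.

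The 15 largest rises and falls were also read in the other regions at 26 weeks. The count of genes called between 175QK772T and WT was 4600 of 19692 (23.4%) in striatum, 1756 of 19888 (8.83%) in cortex, 412 of 19787 (2.08%) in medulla and 57 of 19156 (0.298%) in cerebellum. Of the 15 rises 11 were tested in striatum and 11 called higher, 13 and 5 in cortex, 12 and 4 in medulla and 1 and 0 in cerebellum. A gene at or near 0 in WT could pass the filter there only through the mutants, so the count for striatum adds no support. Of the 15 falls 5 of 13 were called lower in striatum, 5 of 13 in cortex, 1 of 13 in medulla and 1 of 12 in cerebellum. Plk5 was called lower in all 4 of these regions, with log2 fold changes of -1.75, -2.45, -0.73 and -1.55 in striatum, cortex, medulla and cerebellum in turn. Dsp was higher in 175QK772T striatum, at 6.22 CPM against 1.61 CPM in WT, a log2 fold change of 2.05 ± 0.44. In cortex 1 of the 4 WT libraries held all Hoxa5 reads of its group, with 33.8 CPM against a mean of 0.348 CPM in 175QK772T cortex, so the cortex counts are those of a set with 1 such control. In medulla, which uses Hox genes normally, Hoxa5 averaged 58.2 CPM in 175QK772T and 49.99 CPM in WT mice and was not called.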

How the data were processed

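Per the labels' protocols, RNA was extracted with TRIzol, selected for poly(A) and sequenced on a NovaSeq in paired reads of 150 nt, with the 2 ages as separate batches. Reads were processed with bcl2fastq 2.20.0, Trimmomatic 0.33 and HISAT2 2.1.0 on GRCm38, per the submitters' processing notes. The deposited tables hold counts per gene, not normalized, which the authors made with featureCounts of Subread 1.6.2. Settings of the 26-week counting are not given in the sources used here, so overlapping, antisense and paralogous genes are uncertain; the 10-week file used Ensembl GRCm38.97 and a mapping quality of at least 10, per the file headers.

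From these counts the 12 hippocampus libraries of each age were fitted with edgeR 4.0.16 in R 4.3.3 (filterByExpr, TMM, quasi-likelihood test, terms for genotype and sex, Benjamini-Hochberg adjusted p below 0.05 over all genes tested); the interaction used 24 libraries. DESeq2 1.42.0, other scalings, no filter, no sex term, a replicate block and libraries left out were alternatives. The steps were tested on simulated data. Replicates are different mice by their labels. Named genes were Atxn1, the 15 largest rises and falls against WT with a mean of at least 1 CPM and no overlap between groups, 5 each against 175Q, 3 each for 10 weeks and the interaction, and members of 37 gene lists; genes on chromosome Y, Xist, Tsix, unnamed and Gm or Rik genes were left out. Promoter genes and family counts were chosen after their values were seen. Members, lists and rules were chosen with earlier results of these data known. CPM was computed here, and no library was a copy of another. A few genes that the rules name are not reported here. Roles of genes are general knowledge. Sequences are from RefSeq.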

Additional observations from a re-analysis of the deposited data

Results flagged for a closer look

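A library far from the other 3 of its group was looked for in 358 groups of 4 libraries at 26 weeks, over 122 named genes, and 21 groups held one. The gap to the nearest library divided by the range had to pass Dixon's 95% critical value, which chance alone passes in about 1 of 20 groups. In 175QK772T mice library 4 was apart for Hoxb2 (0.798 CPM, others 1.81 to 1.97), Lct (5.29 CPM, others 9.17 to 9.78) and Vip (15.2 CPM, others 11.4 to 11.7). Library 2 of 175QK772T was apart for Lbx1 (1.255 CPM, others 0.456 to 0.582). In 175Q mice library 4 was apart for Ankrd63 (2.25 CPM), Fibcd1 (46.7 CPM), Gpr161 (30.3 CPM), Penk (11.8 CPM) and, as the lowest, Olfr539 (0.162 CPM). In 175Q mice library 1 was the highest for Egr3 (45.1 CPM) and Skor1 (19.4 CPM), and library 3 for Arntl (38.2 CPM). In WT mice library 1 was the highest for Plk5 (35.3 CPM) and Trpc6 (36.2 CPM), library 2 for Pdzd2 (74.9 CPM), and library 4 for Cd68 (10.8 CPM). In WT mice a single library held all reads of Barx1 (0.0560 CPM), Hoxb5 (0.0280 CPM), Hoxb8 (0.0303 CPM), Hoxd8 (0.0646 CPM) and Lbx1 (0.0280 CPM).

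The effect of 175QK772T against WT differed between 26 and 10 weeks, by the interaction term, in 16 genes, of which 15 are given. The difference of log2 fold changes, 26 minus 10 weeks, was 2.99 for Hoxa7, 2.68 for Sim2, 2.58 for Skor1, 1.96 for Foxd1, 1.79 for Twist1, 1.29 for Tbx2, 1.15 for Tal1, 0.86 for Onecut2 and 0.31 for Mtss1. It was -2.22 for Dsp, -1.34 for C1ql2, -1.22 for Lefty1, -0.79 for Sema5a, -0.62 for Sowaha and -0.56 for Fam84a.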

How the results depend on the processing

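For 175QK772T against WT at 26 weeks the count of genes called was 3765, and 2797 to 3413 without 1 library; it left the range of 1.5 times only without the 2 libraries richest in choroid plexus RNA (2287). DESeq2 called 4150, RLE scaling 3741, no filter 4209, no sex term 3814, the fit of these 2 groups alone 4288 and total-count scaling 4724. For 175QK772T against 175Q the count was 3107, 2035 without the 2 libraries, 2627 without 175Q library 2, and 1982 (without 175QK772T library 2) to 3055 without 1 library. At 10 weeks the count was 2273, 1307 with a replicate block, and 1271 (without 175QK772T library 4) to 1961 without 1 library; without WT library 1 it was 1317 and without WT library 3 it was 1376. The interaction gave 16 genes, 125 with DESeq2, 447 with no filter, 4 with a replicate block, 10 without the 2 libraries, and 5 (without 175QK772T library 4 of 10 weeks) to 23 (without 175QK772T library 1 of 10 weeks) without 1 library. For 175Q against WT the 8073 calls were 7183 to 7948 without 1 library. The causes were not tested. Replicate numbers did not pair the samples: same-numbered 175QK772T and WT libraries of 26 weeks had correlations of 0.218, -0.346, -0.0187 and 0.134, and the replicate block called 3985 genes. No named gene changed direction. Of 183 genes called at 26 weeks that are named or belong to a list, 147 kept the call without any 1 library and 141 under every other setting. Where WT had no or few reads, depth limits the ratio and not the direction.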
